A study of Mus musculus with 8 samples.

Results

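The AP-1 and immediate early genes described here are 10 named genes: the Fos family (Fos, Fosb, Fosl1, Fosl2), the Jun family (Jun, Junb, Jund), the transcription factors Egr1 and Atf3, and the phosphatase gene Dusp1. They were chosen by name, and all 10 had a probe among the 20144 genes that the array's probes could be matched to. Gene expression was measured on 8 mouse one-color microarrays with 1 array for each group. The groups were p75NTR-positive cells of embryonic liver on 4 days (first E11.5 and E13.5, later E14.5 and then E17.5) and of newborn liver at P1, adult hepatic stellate cells (adult HSC), cultured embryonic skin fibroblasts (MEF) and mesenchymal stem cells purified from adult bone marrow (MSC). The fetal and newborn livers were digested with collagenase, and cells that carried the neurotrophin receptor p75NTR but neither CD45 (leukocytes) nor Ter119 (red cells) were sorted by flow cytometry. Adult HSC were taken as vitamin A-positive liver cells. The labels name no genotype, strain, treatment or adult age, and do not say whether animals were pooled for an array or whether the MSC were cultured.

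AP-1 is a pair of basic leucine zipper proteins, a Fos protein with a Jun protein or 2 Jun proteins, that binds DNA and turns genes on or off. Immediate early genes are transcribed within minutes of a stimulus without new protein synthesis, when MAP kinases and other kinases act on factors already bound at their promoters. Serum, growth factors, wounding, tissue digestion and cell sorting are all known stimuli. In the liver these genes are known for their rapid and brief rise after partial hepatectomy, and AP-1 in stellate cells is known for acting on matrix and protease genes.

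Each level below is a log2 spot signal relative to the 75th percentile of all spots on the same array, so a level of 0 equals that percentile and a step of 1 is a doubling. Levels of different genes come from different probes and are not compared with each other. The arrays had 58.8% to 64.5% of their 43020 non-control spots well above background and 0 saturated spots, and the signal at their 75th percentile ranged from 243 to 414. The median SD among 10 spots of the same probe was 0.060 to 0.088 by array, which is technical error only. Of the members only Fos had 10 spots. The others had 1, so their spot spread below is borrowed from this median of other probes. A given probe can vary more: at P1 the SD of Fos was 0.23 and the median 0.084. The slope of the spike-in controls was 0.849 on the E11.5 array and 0.922 to 0.933 on the others. All 10 stellate cell markers were well above background on each of the 6 liver-derived arrays, against 8 on the MEF array and 4 on the MSC array, and Lrat, the vitamin A-esterifying enzyme, was not above background in MEF or MSC. Transcripts of other liver cells were present in the sorts: the hepatocyte gene Alb lay at -2.03 at E11.5 and 7.19 at E14.5, and the globin gene Hba-a1 at 2.51 to 6.92 on the 5 p75NTR arrays. On the MEF array 8 of 9 leukocyte and Kupffer cell markers were well above background, Lyz2 at -0.64 and Adgre1 at -0.53 among them, and their summed signal was 15.3 times the 75th percentile against 0.48 to 2.73 on the other 7 arrays. The MSC array, with a sum of 2.02, lay within the range of the liver-derived arrays. The differences of the members without the MEF array are therefore also given, and those of other genes are not. Because MEF and MSC were the only cells not taken from liver, the cell type and its handling cannot be told apart in that comparison. In such bulk samples fewer cells of a type and less RNA per cell cannot be told apart either.

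The starts of 8 of the 10 genes, all but Fosl1 and Egr1, were in the RefSeq promoter table (assembly GRCm38.p6). The 150 bases before the start are shown for the 6 genes with a match to a cAMP response element or its variants. The matches can so be read in their context. Fosl2 and Jund were searched and had none. Each is written 5′ to 3′ on the gene's own strand, and the capitals mark matches to TGACG (the half-site of the cAMP response element TGACGTCA, bound by CREB and ATF proteins) or to TGACNTCA, the 8-base form that Jun and ATF proteins bind.
Fos, chr12:85473740-85473889, plus strand: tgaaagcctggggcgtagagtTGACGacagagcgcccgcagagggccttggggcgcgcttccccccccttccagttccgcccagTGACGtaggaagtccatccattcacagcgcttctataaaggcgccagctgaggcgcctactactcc
Fosb, chr7:19310046-19310195, minus strand: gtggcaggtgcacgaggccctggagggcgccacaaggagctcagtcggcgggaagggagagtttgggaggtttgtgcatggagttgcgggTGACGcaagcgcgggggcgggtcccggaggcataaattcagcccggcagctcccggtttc
Jun, chr4:95052223-95052372, minus strand: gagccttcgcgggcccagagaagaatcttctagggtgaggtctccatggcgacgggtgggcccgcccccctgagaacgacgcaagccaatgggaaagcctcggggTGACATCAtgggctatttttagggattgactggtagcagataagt
Junb, chr8:84978749-84978898, minus strand: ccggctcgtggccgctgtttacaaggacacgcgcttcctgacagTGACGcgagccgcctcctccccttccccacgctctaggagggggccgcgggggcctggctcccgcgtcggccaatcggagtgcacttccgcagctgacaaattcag
Atf3, chr1:191183334-191183483, minus strand: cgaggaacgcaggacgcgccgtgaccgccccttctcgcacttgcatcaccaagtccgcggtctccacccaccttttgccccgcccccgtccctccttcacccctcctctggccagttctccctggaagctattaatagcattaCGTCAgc
Dusp1, chr17:26508473-26508622, minus strand: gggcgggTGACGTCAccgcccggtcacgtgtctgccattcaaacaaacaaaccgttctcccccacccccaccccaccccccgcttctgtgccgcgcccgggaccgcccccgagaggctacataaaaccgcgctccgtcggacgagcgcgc
Both strands of the 250 bases before each start were searched, and a TGACGTCA also counts as a TGACG on each strand and as a TGACNTCA. The half-site TGACG was found in 5 of 8 member promoters (Fos, Fosb, Junb, Atf3, Dusp1) and in 17.8% of 32851 mouse promoters searched the same way. The 8-base form TGACNTCA was found in 2 of 8, as TGACATCA from -45 to -38 of Jun and as TGACGTCA from -143 to -136 of Dusp1, and in 7.49% of all promoters. The 7-base AP-1 site TGANTCA was in 0 of 8 and in 6.75% of all promoters, and the CArG box, to which serum response factor binds, was in 0 of 8 and in 1.47%. Bases farther than 250 from a start were not searched, and neither were Fosl1 and Egr1. A count of 0 therefore does not show that these genes lack a site. These matches are a description of the letters, and binding was not measured.

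The liver-derived cells were high and MEF and MSC low for 8 of the 10 genes in the mean, and over the p75NTR stages all 10 sloped upward. The 6 liver-derived arrays were set against MEF and MSC with limma over 16521 genes, and 4 of 10 members passed an adjusted p of 0.05 (Fos, Fosb and Jun higher, Fosl1 lower), against 1.57% of all genes tested (0.847% higher and 0.726% lower). At an unadjusted p under 0.05 there were 8 members, among 3240 genes. All liver-derived arrays with a value lay above both others for 6 members (12.8% of all genes), below both for 1 (10.5%), and overlapped them for 3. Jund, which had no value at E13.5, is among the 6. The median difference of the members was 2.84 on the log2 scale and that of all genes 0.02. Since no group was measured more than once, the error in this test comes from differences among stages and cell types.

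**Figure D1:**
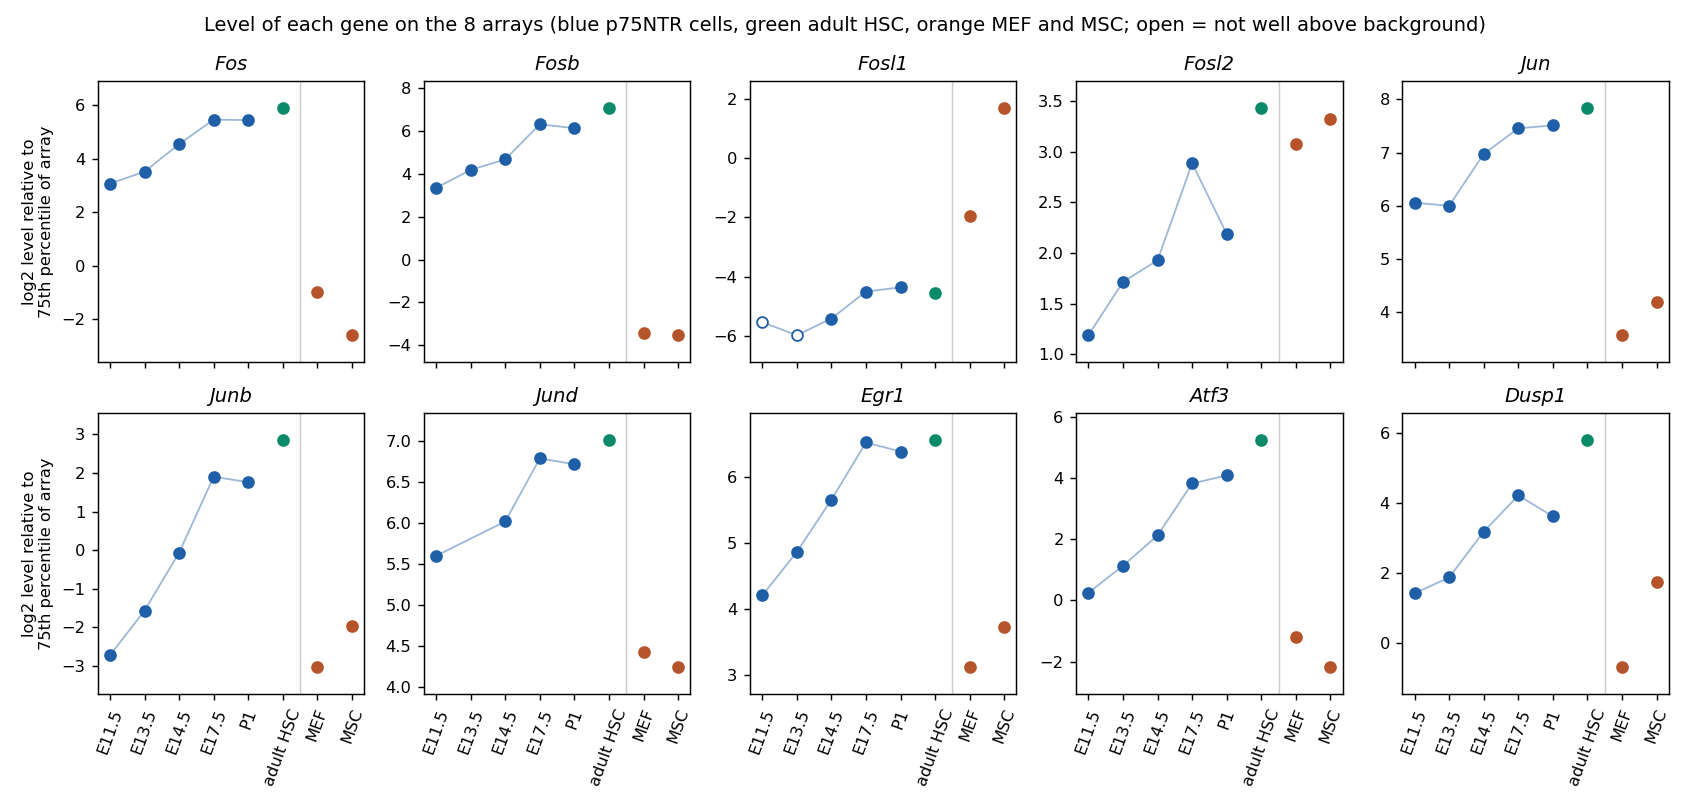
Level of each of the 10 genes on the 8 arrays (y axis, log2 signal relative to the array's 75th percentile, scaled for each gene; x axis, arrays; 1 point per array, open where the probe was not well above background, with lines joining the p75NTR stages). Fos and Fosb lie below 0 on the MEF and MSC arrays and above 3 on all liver-derived arrays, Fosl1 runs the other way, and Jund has no E13.5 value because its only spot there was marked as an outlier.

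Fos, the founding member of AP-1, is the immediate early gene most often used as a sign of recent stimulation. Its level was 3.07 at E11.5, 3.51 at E13.5, 4.54 at E14.5, 5.46 at E17.5, 5.43 at P1 and 5.88 in adult HSC, and -0.99 in MEF and -2.59 in MSC. Fos had 10 spots per array (8 used at E17.5), whose SD was 0.02 to 0.23. The 6 liver-derived arrays did not overlap MEF and MSC, and their mean was 86.6-fold higher (log2 difference 6.44 ± 0.85 SE, limma adjusted p = 0.016). With normexp background correction the log2 difference was 5.73 (limma adjusted p = 0.0145). E17.5 and P1 lay within the spot spread of each other, and each other pair of neighbours in the order differed by more than 2 times the spot SD of their difference.

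Fosb makes the Fos-type protein whose truncated form, deltaFosB, is known for its long life. It stood at 3.34, 4.18, 4.67, 6.30 and 6.12 from E11.5 to P1, at 7.05 in adult HSC, at -3.42 in MEF and at -3.52 in MSC. The level was thus lowest and nearly equal in the 2 cell types not taken from liver, and the difference, 431-fold (8.75 ± 0.96, limma adjusted p = 0.0070), was the largest of the 10 members. With normexp background correction the log2 difference was 7.35 (limma adjusted p = 0.011).

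Fosl1, which encodes Fra-1, a Fos-type protein without a strong activating domain that is typical of growing and migrating cells, ran the other way. Its level was -5.53 at E11.5 and -5.96 at E13.5, both not well above background, then -5.40, -4.49 and -4.35 at E14.5, E17.5 and P1, and -4.54 in adult HSC. MEF stood at -1.96 and MSC at 1.68, above all 6 liver-derived arrays, 4 of which measured the gene. The liver-derived mean was at least 29.3-fold lower, with the arrays below background set to the lowest signal well above background (measured values: -4.90 ± 0.90, limma adjusted p = 0.048). The difference was -2.41 (adjusted p = 0.107) with normexp background correction and -3.08 (adjusted p = 0.114) without the MSC array. MSC exceeded MEF by 12.5-fold, with 1 array on each side.

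Fosl2, which encodes Fra-2, did not separate the cell types. Its level was 1.19 at E11.5, 1.71 and 1.93 on the next days, 2.89 at E17.5, 2.19 at P1 and 3.43 in adult HSC, and was 3.08 in MEF and 3.32 in MSC. The liver-derived arrays overlapped the others, and the difference was -0.98 ± 0.57 (limma adjusted p = 0.379, 95% interval -2.31 to 0.35). A second and dimmer Fosl2 probe lay at -5.97 at E11.5, where it was not above background, at -3.88 at E17.5 and -4.40 at P1, and at -4.76 in MEF and -3.78 in MSC.

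Jun, the main partner of the Fos proteins and a direct target of JNK kinases, was measured at 6.05, 6.0, 6.97, 7.45 and 7.51 from E11.5 to P1, at 7.83 in adult HSC, at 3.56 in MEF and at 4.19 in MSC. The liver-derived arrays lay above the others without overlap, by 8.54-fold (3.09 ± 0.57, limma adjusted p = 0.048). Jun passed in 10 of 20 alternatives, and with median normalization its difference was 2.71 (adjusted p = 0.098). Jun has 1 spot per array, and by the borrowed spot spread its first 2 stages could not be told apart, nor could E17.5 and P1.

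Junb, a partner that can oppose Jun in growth control, was the member with the steepest stage course. It stood at -2.73 at E11.5, -1.57 at E13.5, -0.07 at E14.5, 1.90 at E17.5, 1.76 at P1 and 2.85 in adult HSC, and at -3.02 in MEF and -1.98 in MSC. MEF and MSC therefore lay on both sides of the E11.5 array, and the difference of 2.86 ± 1.47 did not pass (limma adjusted p = 0.323).

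Jund, the Jun gene that is known for steady rather than induced transcription, had the narrowest range of the 3. Its level was 5.60 at E11.5, 6.02 at E14.5, 6.78 at E17.5, 6.71 at P1 and 7.01 in adult HSC, against 4.42 in MEF and 4.24 in MSC, with no value at E13.5, which the fits left out. All 5 measured liver-derived arrays lay above the other 2, by 4.26-fold (2.09 ± 0.44), and the adjusted p of limma was 0.084. The deposited log2 values gave a difference of 1.85 (limma adjusted p = 0.148) and a slope of 0.40 per stage, against 0.31 here.

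Egr1, a zinc finger factor induced with Fos through serum response elements, was 4.20, 4.86, 5.65, 6.52 and 6.38 from E11.5 to P1, 6.55 in adult HSC, 3.12 in MEF and 3.73 in MSC. No liver-derived array overlapped MEF or MSC, and the 4.82-fold difference (2.27 ± 0.68) had a limma adjusted p of 0.152. The levels at E17.5, P1 and in adult HSC could not be ordered beyond the spot spread borrowed from other probes.

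Atf3, a stress-induced bZIP factor known mostly as a repressor, was 0.25, 1.13, 2.12, 3.82 and 4.08 from E11.5 to P1 and 5.24 in adult HSC. MEF stood at -1.21 and MSC at -2.17, below all 6 liver-derived arrays. The difference was 22.0-fold (4.46 ± 1.29) with a limma adjusted p of 0.143. Of the 9 members measured at every stage, Atf3 was the 1 that was higher after each of the 4 steps from E11.5 to P1, as 3.32% of all genes were. That count was 0 with median normalization, 2 with normexp and 3 with quantile normalization.

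Dusp1 encodes MKP-1, a phosphatase that switches off the p38 and JNK kinases and is itself an immediate early gene. Its level was 1.43, 1.88, 3.19, 4.22 and 3.62 from E11.5 to P1, 5.80 in adult HSC, -0.67 in MEF and 1.75 in MSC. The MSC array lay above the E11.5 array, so the groups overlapped, and the difference of 2.82 ± 1.18 did not pass (limma adjusted p = 0.243), and it was 1.61 without the MEF array. MSC exceeded MEF by 5.35-fold.

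**Figure D2:**
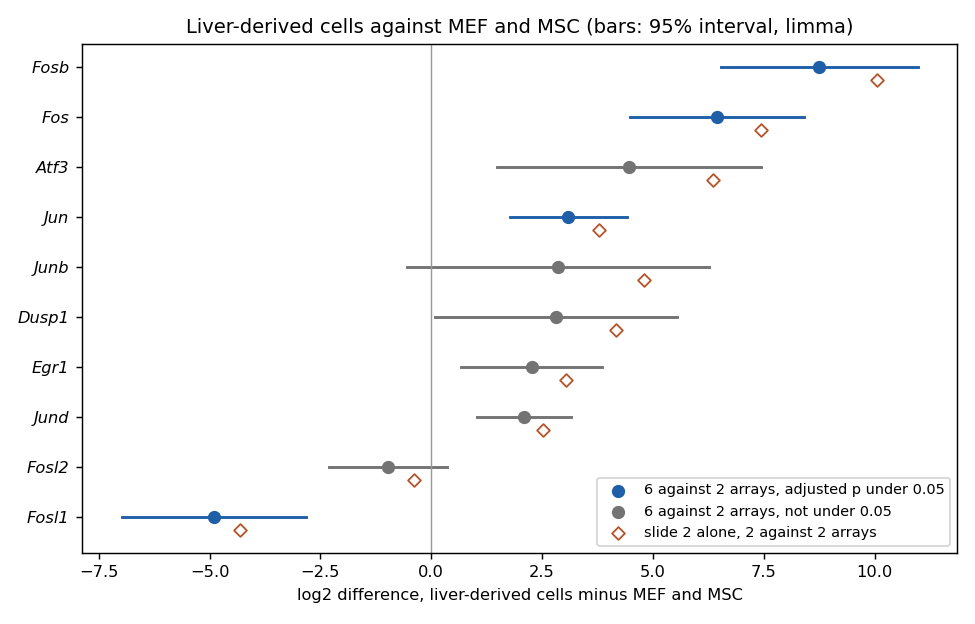
Log2 difference of the 6 liver-derived arrays minus MEF and MSC for each gene (x axis; circles with 95% intervals from limma, blue where the adjusted p is under 0.05), and the same difference from slide 2 alone (diamonds, P1 and adult HSC against MEF and MSC). Fosb and Fos lie farthest to the right and Fosl1 lies to the left of 0. The diamonds share 4 of the 8 arrays with the circles and are no independent estimate.

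The fetal arrays shared 1 slide, and P1, adult HSC, MEF and MSC shared the other, so the comparison was repeated on slide 2 alone. There P1 and adult HSC both lay above MEF and MSC for 8 members (24.4% of all genes) and below both for Fosl1 (26.2%), and Fosl2 overlapped. The slide 2 difference was 10.06 for Fosb, 7.44 for Fos, 6.35 for Atf3, 4.81 for Junb, 4.17 for Dusp1 and 3.79 for Jun. No gene passed limma's adjusted threshold with 2 arrays on each side, and 1453 had an unadjusted p under 0.05. With slide as a covariate over all 8 arrays Fos and Fosb passed (0.436% of all genes did), and Jun (adjusted p = 0.058) and Fosl1 (0.133) did not.

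The calls of Jun and Fosl1 lay close to the threshold and were lost in several fits that left out 1 array, while the difference of Jun stayed between 2.78 and 3.41. Fos and Fosb passed without E13.5 (0.578% of all genes passed), E14.5 (0.548%), E17.5 (0.523%) or P1 (1.04%). Fos, Fosb and Jun passed without E11.5 (1.15%), Fos, Fosb and Fosl1 without MEF (7.91%), Fosb alone without MSC (1.5%), and all 4 without adult HSC (3.2%). The difference of Fos without MSC was 5.63 (limma adjusted p = 0.079). Without the MEF array, which carried leukocyte transcripts, the difference was 7.24 for Fos, 8.80 for Fosb, -6.72 for Fosl1 and -1.10 for Fosl2. It was 2.78 for Jun, 2.34 for Junb, 2.18 for Jund, 1.97 for Egr1, 4.94 for Atf3 and 1.61 for Dusp1. The median difference of the members was then 2.26, the lowest over the arrays left out in turn, where the highest was 3.40.

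Over the 5 p75NTR stages all 10 members had an upward slope, as did 45.3% of 15538 genes. The fit took the stages as equal steps, though the fetal ones lie 2, 1 and 3 days apart. Of these arrays P1 alone was on slide 2, and E11.5 had the flatter spike-in slope, so stage and array are partly mixed. With 1 stage left out in turn, P1 among them, the median slope of the members ran from 0.56 to 0.80. The slope per stage was 1.24 ± 0.16 for Junb, 1.03 ± 0.10 for Atf3, 0.77 ± 0.12 for Fosb, 0.67 ± 0.16 for Dusp1, 0.67 ± 0.10 for Fos, 0.60 ± 0.10 for Egr1, 0.44 ± 0.09 for Jun, 0.38 ± 0.11 for Fosl1, 0.32 ± 0.12 for Fosl2 and 0.31 ± 0.09 for Jund (log2, SE). The median was 0.63 for the members and -0.03 for all genes. None of the 10, and 0 of 15538 genes (0.0%), passed an adjusted p of 0.05 in limma, where the members ran from 0.059 (Atf3) to 0.181 (Fosl2). At an unadjusted p under 0.05 there were 9 members, all upward (12.4% of all genes), and 4359 genes in either direction. The calls depended on the processing: 5 members passed when only genes above background on every array were tested (Fos, Fosb, Junb, Egr1, Atf3; 5.22% of genes passed). With normexp background correction 6 passed (those 5 and Jun; 4.81% of genes), as did 6 with a trended robust variance prior (the same 6; 7.44%). Fosl1 was not above background at E11.5 and E13.5, and its slope was 0.02 (adjusted p = 0.904) with normexp.

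From E11.5 to P1 each member was at least 2-fold higher, which 19.3% of all genes were, and 6 were at least 4-fold higher (9.68%). Junb was 22.4-fold higher, Atf3 14.2-fold, Fosb 6.86-fold, Fos 5.15-fold, Dusp1 4.58-fold and Egr1 4.52-fold. The Jun gene was 2.74-fold higher, Jund 2.17-fold and Fosl2 2.0-fold, and Fosl1 was at least 2.01-fold higher because E11.5 was below background. With median normalization 8 members were at least 2-fold higher, as Fosl2 (0.83) and Jund (0.94) lay below a log2 difference of 1. The log2 difference of Junb was 4.49, and 3.21 with normexp. With 1 array on each side there is no test, and the E11.5 array is the one with the flatter spike-in slope. The sign of Fosl1 turned with normexp background correction (-0.12).

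**Figure D3:**
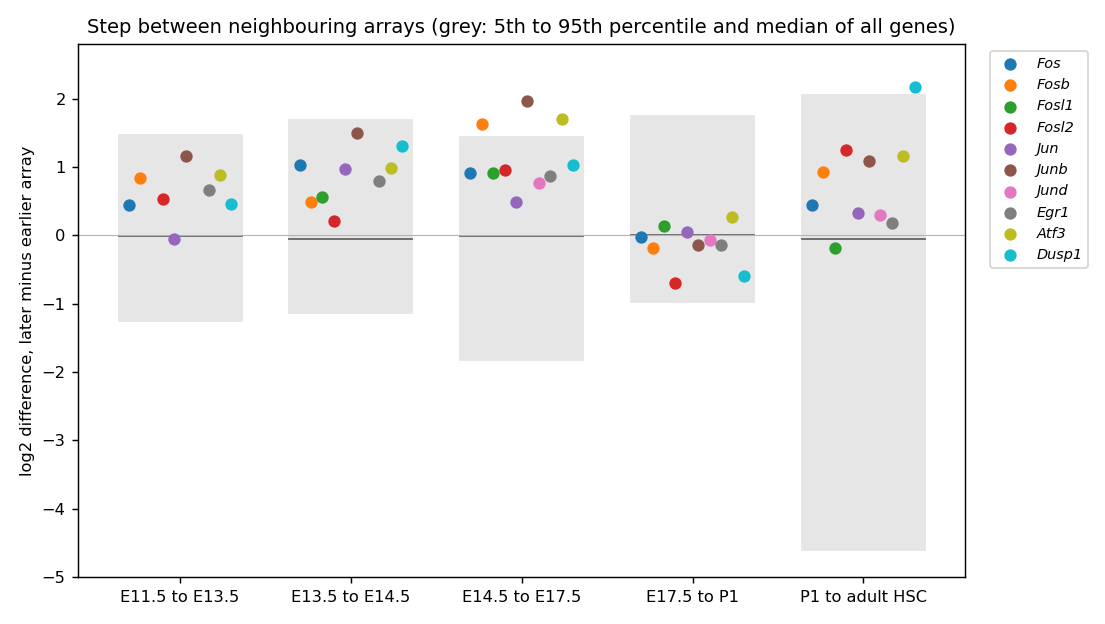
Log2 difference between neighbouring arrays in order of age (y axis, later minus earlier array), with 1 colored point per gene and, in grey, the 5th to 95th percentile and the median of all genes. All 10 points lie above 0 from E14.5 to E17.5 (49.5% of all genes) and 3 of 10 do so from E17.5 to P1 (50.6%).

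The course was not even. From E11.5 to E13.5, 7 of 8 members measured were higher on the later array (49.0% of all genes), and Junb was at least 2-fold higher (7.82%). From E13.5 to E14.5 all 9 measured were higher (45.1% of all genes), 3 of them at least 2-fold (9.38%). All 10 were higher at E17.5 than at E14.5 (49.5% of all genes). In that step 4 were higher by at least 2-fold (8.82%): Junb 3.91-fold, Atf3 3.24-fold, Fosb 3.10-fold and Dusp1 2.04-fold. This was the largest step for 6 of the 9 members with every stage, and it spans 3 days against 2 and 1 for the steps before. Per day, the step from E13.5 to E14.5 was the largest of the fetal steps for 7 of 9 members. Its median was 0.98 a day against 0.31 from E14.5 to E17.5. The 7 include Fosl1, which was not above background at E11.5 and E13.5. Dividing by days leaves the array error whole in the 1-day step and shrinks it in the others. How many of all genes had the same largest step was not counted, so neither count marks the members out. The step across birth differed from these in its values. From E17.5 to P1 0 of 10 were 2-fold higher (12.2%), and 3 of 10 were above 0 (50.6% of all genes). The differences ran from -0.70 (Fosl2) to 0.26 (Atf3). That step also crosses from slide 1 to slide 2, so age and slide cannot be told apart in it. The 3 steps before it lie within slide 1, and 7 of 9 members were higher after each of the 3 (10.4% of all genes).

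Transcripts of other cells also changed over these stages. Of the leukocyte and Kupffer markers, 1 of 9 was above background at E11.5, 3 at E13.5, 5 at E14.5 and 6 at E17.5 and P1, and their summed signal was 0.63, 0.48, 1.15, 2.66 and 2.73 times the 75th percentile. Ptprc, which encodes CD45, and Lyz2 were not above background at any of these stages. The summed signal of 5 smooth muscle and myofibroblast markers was 75.3, 48.8, 119, 213 and 317. The endothelial sum was 16.6, 15.5, 35.0, 56.1 and 16.9, although only 3 of its 8 markers sloped upward. The stellate sum was 199, 212, 356, 403 and 212, with 7 of 10 markers sloping upward. The hepatocyte sum, 8.70, 288, 772, 94.9 and 40.7, peaked at E14.5 and the erythroid sum, 21.2, 43.4, 53.4, 211 and 19.0, at E17.5. The part of these transcripts in the course of the members was not tested.

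Adult HSC against P1 compares liver cells sorted by different markers, both on slide 2. Here 4 members were at least 2-fold higher in adult HSC (14.4% of all genes) and 9 of 10 were above 0 (47.5% of all genes). Dusp1 was 4.52-fold higher, Fosl2 2.37-fold, Atf3 2.23-fold and Junb 2.13-fold. Fosb was 1.90-fold higher, Fos 1.36-fold and Jun, Jund and Egr1 1.13-fold to 1.25-fold, and Fosl1 differed by -0.19. The mean of both Fosl2 probes gave a log2 difference of 0.83. Centering the arrays on their medians instead moves every gene up by 0.77 in this pair, which gave 8 members at least 2-fold higher against 37.2% of all genes, and it turned the sign of Fosl1 (0.58), as did quantile normalization (0.61). Of the 9 members with a value on all 6 liver-derived arrays, 8 were highest in adult HSC (27.7% of all genes). Egr1 is among the 8, although its lead over E17.5, 0.04, was within the borrowed spot spread. Of the same 9, 7 were lowest at E11.5 (17.3%), the array with the flatter spike-in slope. Markers of other cells differed in this pair too: from P1 to adult HSC the endothelial sum was 16.9 and 225 times the 75th percentile (8 of 8 markers above background on both), the stellate sum 212 and 1025 (10 of 10), the smooth muscle and myofibroblast sum 317 and 46.1 (5 and 4 of 5) and the erythroid sum 19.0 and 0.11 (7 and 3 of 8). Of the 8 endothelial markers only 3 were higher in adult HSC, and the median log2 difference of the 8 was -0.35. The rise of the endothelial sum was thus not shared by most of its markers. The part of these markers in the values of the members was not tested.

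Between the cell types not taken from liver the members did not move one way. MSC exceeded MEF for Fosl1 and Dusp1, as given above, and for Junb (2.07-fold), Jun (1.54-fold), Egr1 (1.52-fold) and Fosl2 (1.19-fold). Fos was 3.04-fold lower in MSC than in MEF, and Atf3, Jund and Fosb differed by -0.96, -0.18 and -0.10 on the log2 scale. The pair has 1 array on each side and no test.

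The lists of related genes were chosen with the members, by function. Of all genes, 1.57% passed in the liver comparison, and 3240 of 16521 had an unadjusted p under 0.05 in either direction. Of 15 other immediate early transcription factors tested, 0 passed in the liver comparison (6 at an unadjusted p, all higher). Their median was 1.90 against 0.02 for all genes. Over the stages 14 of 15 sloped upward (median 0.46), as did 45.3% of all genes. Nr4a1, an orphan nuclear receptor, was 3.47, 4.01, 5.48, 6.30 and 6.39 from E11.5 to P1, 6.79 in adult HSC, 2.50 in MEF and 2.04 in MSC. Klf2, a zinc finger factor of quiescent cells, was 1.28, 2.17, 3.49, 4.77 and 5.23 over the stages and 5.96 in adult HSC, against 2.34 in MEF and 2.67 in MSC. Klf2 was thus higher at each later stage, with MEF and MSC above E13.5. Egr4, a relative of Egr1, had a level of 0.27 at P1 and -3.75 in adult HSC.

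Of 22 other immediate early genes that are not transcription factors, 1 passed in the liver comparison: Sik1, a kinase of the salt-inducible family, was higher by 2.44 ± 0.38 (limma adjusted p = 0.030). Over the stages 21 of 22 sloped upward (median 0.67), as did 45.3% of all genes. At P1, 16 were at least 2-fold higher than at E11.5 (19.3% of all genes). Zfp36, which encodes an RNA-binding protein that speeds the decay of immediate early mRNAs, was -3.53 at E11.5, 1.58 at E17.5, 1.31 at P1 and 2.65 in adult HSC. Socs3, a feedback inhibitor of cytokine receptors, went from 2.88 at E11.5 to 6.29 at P1 and 6.73 in adult HSC. Ptgs2, which encodes cyclooxygenase-2, lay at 2.32 in MSC and -1.70 in MEF and was not above background in adult HSC or at E11.5 and E13.5.

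Few of the kinases and transcription factors listed upstream of these genes sloped upward. Of the 16, which include the Elk and MRTF genes, 3 did so: Mapk3, Mrtfa and Elk4 (median of the 16 -0.13), against 45.3% of all genes. None of them was 2-fold higher at P1 than at E11.5 (19.3% of all genes). In the liver comparison 0 passed, with 4 higher and 1 lower at an unadjusted p. Mapk3, which encodes ERK1, was 2.25 at E11.5 and 3.21 at P1, and Rps6ka1, which encodes the kinase RSK1, was 2.99 at E11.5 and 0.69 at P1. Among 10 other MAP kinase phosphatases of the DUSP group 7 sloped upward (median 0.09) and 0 passed in the liver comparison (2 higher and 1 lower at an unadjusted p). Dusp6, the phosphatase of ERK, was 3.66, 3.45, 4.04, 4.15 and 3.76 over the stages, 5.55 in adult HSC, 1.5 in MEF and 1.63 in MSC.

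Of 22 other bZIP factors 0 passed in the liver comparison (median 0.16), with 3 higher and 2 lower at an unadjusted p. Over the stages 19 sloped upward (median 0.20), as did 45.3% of all genes. Cebpd, an acute-phase factor, was 2.77 at E11.5, 5.45 at P1 and 6.43 in adult HSC, and Batf2 went from -4.20 at E11.5 to -0.99 at P1 and 2.21 in adult HSC. Atf5 was higher in MEF (6.14) and MSC (6.05) than on any liver-derived array (3.61 to 5.02).

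Of 15 genes known to carry AP-1 sites that were tested in the liver comparison, 1 passed and was lower. This was Plau, the urokinase protease, at least 47.7-fold lower with the arrays below background set to the lowest signal well above background (measured values: -6.04 ± 0.79, limma adjusted p = 0.015), with a level of -0.89 in MEF and 1.01 in MSC and above background only at E17.5 and P1 among the liver-derived arrays. At an unadjusted p 6 were lower and 0 higher, and the median was -1.27. Timp1, an inhibitor of metalloproteinases, was 1.44 at E11.5, 2.02 at P1, -1.38 in adult HSC, 4.81 in MEF and 5.34 in MSC. Over the stages 9 of 13 sloped upward (median 0.34), as did 45.3% of all genes. At an unadjusted p 3 sloped upward (12.4% of all genes) and 4 downward. Il6, a cytokine gene, was not above background at E11.5 and E13.5, was -4.22, -1.50 and 0.77 at E14.5, E17.5 and P1, and was -4.88 in adult HSC.

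Heat shock genes, another group that stress and handling can induce, gave a mixed picture. Hspa1a, the inducible HSP70 gene, was 0.66, 2.41, 2.85, 4.31 and 4.05 from E11.5 to P1, 2.57 in adult HSC, -2.80 in MEF and -2.17 in MSC, and it was the 1 of 9 that passed in the liver comparison (5.29 ± 0.90, limma adjusted p = 0.038). The median of the list was -0.06 in that comparison and -0.10 over the stages, where 3 of 9 sloped upward (45.3% of all genes). Hspd1, a mitochondrial chaperone, was 4.75 at E11.5 and 3.25 at P1.

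**Figure D4:**
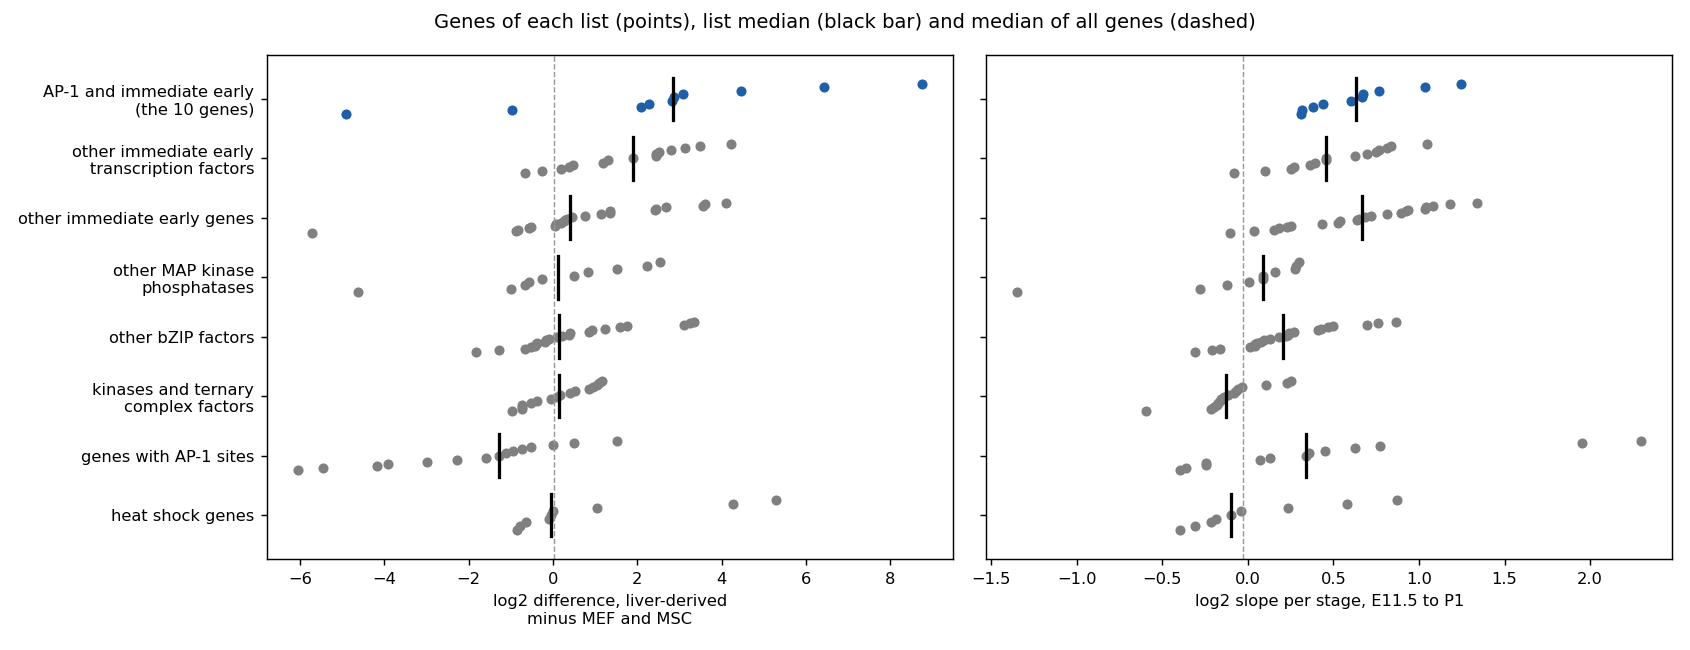
Log2 difference of liver-derived cells minus MEF and MSC (left) and log2 slope per stage from E11.5 to P1 (right) for the 10 genes in blue and the genes of 7 related lists in grey, with black bars at list medians and a dashed line at the median of all genes. On the right the 10 genes and both other immediate early lists lie mostly above 0, while the kinases and ternary complex factors center on -0.13.

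The mean profile of the 8 members above background on all 8 arrays was used to find the genes most like them among 11268 genes above background on all arrays. Ppp1r15a (GADD34, which restores translation after stress) had the highest Pearson correlation over the 8 arrays (r = 0.994), with a level of 4.11 at E11.5, 6.38 at P1, 7.10 in adult HSC, 2.27 in MEF and 2.82 in MSC. It was followed by Pygm, the muscle glycogen phosphorylase (0.987), Wfdc1 (0.985), Nr4a1 (0.984) and Notch1 (0.983). For Fos alone the order was Rarres2, the chemerin gene (0.991), Rnf122 (0.991), Irs2, an insulin receptor substrate (0.990), Bcl2 (0.988) and Pnrc1 (0.983). A correlation above 0.9 was found for 185 genes with the mean profile and for 232 with Fos. With 8 arrays of which 2 are far from the rest, these values describe shared order between cell types and carry no test.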

How the data were processed

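RNA of each group was hybridized to 1 one-color array, so no group has a replicate. The intensity values are background-subtracted, detrended spot signals from Agilent Feature Extraction 11.5.1.1, per the file headers. The deposited log2 values follow the same signals divided by the array's 75th percentile, and they served as an alternative; here each level is the log2 intensity minus the log2 75th percentile. Outlier spots were dropped and spots of a probe averaged. Probes were named by transcript accession in RefSeq (67.4% of 39429), because the scanner files have no gene name column, and the probe with the highest mean stood for a gene. The array design rests on mm9, so only promoter positions, from GRCm38.p6, are given.

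Genes that were well above background on 1 or more arrays of a comparison were fitted with limma 3.58.1 (R 4.3.3) and Benjamini-Hochberg adjusted over all of them; pairs of arrays have no test and were called at 2-fold. On simulated data with independent normal noise and planted effects, the liver fit recovered 66% of differences of 4, with 13 false calls over all sizes. The slope fit recovered 76% of slopes of 1 per stage, with 11 false calls. In the data 0 genes passed the slope fit, so these shares check the code and are no estimate of power for the members. Members, lists and tests were chosen with earlier results of these data known. From each list, up to 4 genes with the largest difference could be named; Sik1 and other genes behind a count of 5 or fewer were named after their values were seen. Normexp correction used the median spot signal, as the mean signal is not a column, and 13 bright local backgrounds on the E13.5 array were set to that array's median. This change was chosen after seeing the data.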

Additional observations from a re-analysis of the deposited data

How the results depend on the processing

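No paired analysis was possible because each group holds 1 array. The 4 members that passed in the liver comparison became 2 with no filter on dim probes, 2 with slide as a covariate and 0 on slide 2 alone, and 1 to 4 when an array was left out. The number of all genes that passed was 260, against 162 with a filter on every array, 524 with the p75NTR arrays alone, 72 with slide as a covariate, 0 on slide 2 alone, and 86 to 1283 without 1 array (1283 without MEF). For the stage slope, 0 members passed, against 5 with a filter on every array, 6 with normexp, 6 with a trended robust prior and 1 with quantile normalization, and the genes that passed were 0, 665, 748, 1156 and 93. The 4 members at least 2-fold higher in adult HSC than at P1 became 8 with median normalization. Of single values, the P1 against E11.5 difference of Fosl1 reversed, to -0.12 with normexp. Its adult HSC against P1 difference, -0.19, changed sign with median and quantile normalization, to at most 0.61. The cause of these changes was not tested. Median normalization moved the median of all genes in the liver comparison from 0.02 to -0.36. Signal over background limits Fosl1 and the second Fosl2 probe, and with 1 array a group no spread between animals can be given.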
